A study of Mus musculus with 12 samples.

Results

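RNA of brown adipose tissue (BAT) was set against RNA of white adipose tissue (WAT) in wild-type male mice, gene by gene. BAT of WT held 3 arrays and WAT of WT held 3 arrays, chosen by the titles that name the tissue and the genotype per2+/+, 6 of the 12 arrays of the series. The other 6 arrays were BAT and WAT of per2-/- mice (KO), 3 each, and served here for the estimate of spread and for the same tissue difference in the other genotype. The Per2 protein is a clock repressor, and all 4 groups were males aged 20 weeks on a chow diet under light-dark cycles, killed at the same time. The labels give neither the depot of the WAT nor whether BAT and WAT of a given replicate number came from 1 animal. The p-values thus measure only the spread between arrays described as biological replicates, pooled over the 4 groups of 3. Each array gave 1-colour PLIER intensities, and 19933 genes were compared, each by the brightest of its transcripts that the authors had tested and that name a single gene. A log2 difference is the mean of log2(intensity + 16) in BAT minus that in WAT, which understates the change of dim genes. A gene was called higher or lower at a limma p below 0.05 after Benjamini-Hochberg adjustment over all 19933 genes.

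Brown fat burns fuel to make heat. Its mitochondria carry an uncoupling protein that lets protons back across the inner membrane without making ATP, so fatty acids and sugars are oxidised and the energy is released as warmth, on a signal from sympathetic nerves. White fat stores triglyceride in large droplets and secretes hormones such as leptin. Both depots rest on the same adipogenic transcription factors, and brown adipocytes share a developmental history with skeletal muscle, beside which the interscapular pad lies.

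The tissues differed at 10089 of 19933 genes (50.6%). In BAT 4045 genes were higher (20.3% of all tested) and 6044 were lower (30.3%), with 1125 (5.64%) and 2410 (12.1%) of them at least 2-fold apart. The median log2 difference over all genes was -0.03, and the largest falls went further than the largest rises, to -10.57 against 8.94. All 3 BAT arrays lay above all 3 WAT arrays at 5155 genes (25.9%) and below them at 6951 (34.9%). The balance of higher and lower depends on scaling, and BAT arrays had lower median intensities (56.3, 57.1 and 60.3) than WAT arrays (70.4, 71.3 and 72.4). With each array centred on its median, 9439 genes were higher (47.4%) and 3834 lower (19.2%), and with quantile normalization 6910 (34.7%) and 4488 (22.5%). Those scalings moved the median of all genes to 0.28 and 0.14, so a log2 difference of 0.3 or less has no settled direction here. Arrays of 1 tissue were alike, with rank correlations over genes of 0.980 to 0.982 in BAT and 0.989 to 0.992 in WAT, against 0.810 to 0.823 between the tissues.

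**Figure D1:**
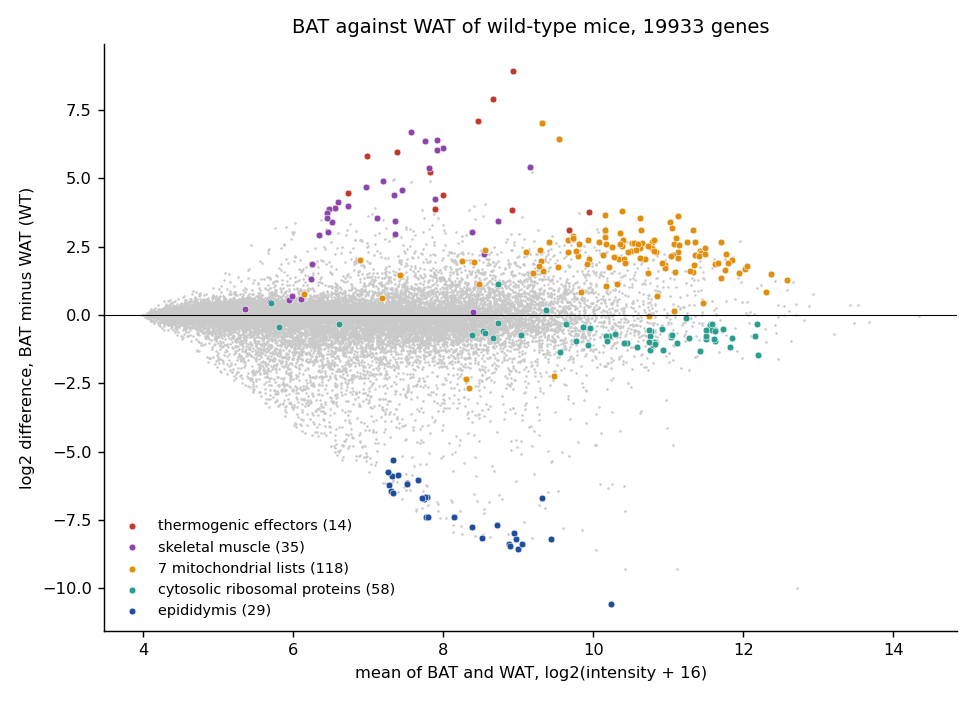
Mean log2(intensity + 16) of BAT and WAT (horizontal axis) against the log2 difference, BAT minus WAT (vertical axis), 1 grey point for each of 19933 genes; colours mark thermogenic effectors, 7 mitochondrial lists, skeletal muscle, cytosolic ribosomal proteins and epididymis genes. Thermogenic and muscle genes sit at the top, up to 8.94, and epididymis genes form the lower arm, down to -10.57.

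The labelled tissues were checked against their defining genes. Ucp1, the uncoupler itself, had intensities of 10810.3, 11144 and 10433 in BAT, against 6.34, 7.05 and 4.76 in WAT (log2 difference 8.94, SE 0.17, adjusted p = 8.24e-11). It was the largest rise of all genes, and every BAT array was far above every WAT array. Leptin (Lep), the hormone of white adipocytes that reports fat stores, had 161, 56 and 86.3 in BAT, against 824, 1001 and 773 in WAT (log2 difference -3.01, SE 0.39, adjusted p = 4.64e-05). Resistin (Retn), another white-fat hormone, had 306, 346 and 313 in BAT and 3619, 3645 and 3155 in WAT (log2 difference -3.37, adjusted p = 1.65e-06). Adiponectin (Adipoq), secreted by adipocytes of both depots, overlapped at 3155, 3401 and 3099 in BAT and 3334, 3231 and 2839 in WAT (log2 difference 0.04, adjusted p = 0.898). Per2 itself was present in both tissues, at 174, 158 and 163 in BAT and 116, 99.5 and 122 in WAT (log2 difference 0.50, adjusted p = 0.0112).

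**Figure D2:**
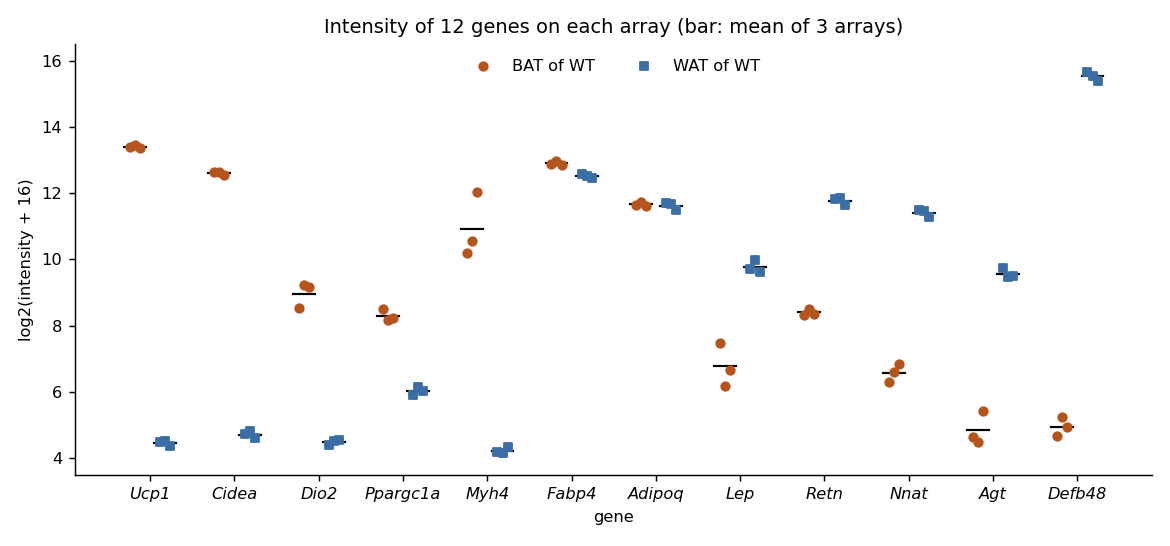
Log2(intensity + 16) of 12 genes on each array; BAT of WT left (circles) and WAT of WT right (squares) of each gene, 3 arrays a tissue, with a bar at the mean. Ucp1, Cidea, Dio2 and Ppargc1a are higher on every BAT array, Lep, Retn, Nnat and Agt are higher on every WAT array, and Adipoq overlaps.

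Markers of a neighbouring organ stood out in each tissue. Of 29 measured genes of the epididymis, the sperm-storing duct beside the testis, all 29 were lower in BAT (30.3% of all genes were), with a median log2 difference of -6.72. Defb48, a beta-defensin secreted by its epithelium, had 9.46, 21.6 and 14.9 in BAT, against 51569, 47702 and 42589 in WAT (log2 difference -10.57, SE 0.48, adjusted p = 2.73e-08), the largest fall of all genes. Lcn8, an epididymal lipocalin, had 7.20, 23.8 and 3.96 in BAT and 9997, 10094 and 9698 in WAT, and no BAT array of either gene came near a WAT array. Also lower were the lipocalin Lcn9 (-8.39), the sperm-coating defensins Spag11b (-8.44) and Defb47 (-8.17), Adam7 (-8.37), a membrane protein of the duct, the cystatin Cst11 (-8.19) and Gpx5 (-8.18), an epididymal glutathione peroxidase. The summed intensity of the 29 genes was 175, 554 and 166 in BAT, against 174111, 171175 and 157519 in WAT, which is 2.90% to 3.22% of all signal on the WAT arrays. All 19 measured genes of epithelium were lower in BAT too (median -5.00), among them the adhesion molecule Epcam, with 2.01, 2.87 and 0.00101 in BAT and 1185, 1196 and 1267 in WAT. The tight-junction claudin Cldn7 had 27.7, 27.9 and 63 in BAT and 20263, 22055 and 19963 in WAT. The claudin Cldn10 differed by -7.18, the keratins Krt19, Krt8 and Krt7 by -6.29, -5.0 and -3.80 and the cadherin Cdh1 by -4.78. Of 10 testis germ cell genes 6 were lower and none higher (4 and 2 after median centring), led by the sperm tail gene Odf1 (-2.71) and the protamine Prm2 (-2.48), followed by the transition protein Tnp2 (-1.24), the protamine Prm1 (-0.91) and Akap4 of the sperm tail (-0.64), while the transition protein Tnp1 did not pass (0.02, adjusted p = 0.926). Their summed intensity was 309, 326 and 366 in BAT, against 1196, 711 and 1237 in WAT. Every WAT array of WT carried the epididymis signal, and its part in the falls that follow was not tested.

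Markers of skeletal muscle were high in BAT. Of 35 measured muscle genes 32 were higher in BAT (20.3% of all genes were), none was lower and 3 were not called, with a median log2 difference of 3.56. Myh4, the fast myosin heavy chain of type IIB fibres, had 1145, 1479 and 4164 in BAT, against 2.39, 1.73 and 4.17 in WAT (log2 difference 6.69, SE 0.53, adjusted p = 1.13e-06). Ckm, the muscle creatine kinase, had 1103, 1956 and 4427 in BAT and 12.2, 14.8 and 17.6 in WAT (log2 difference 6.12, SE 0.55, adjusted p = 3.04e-06). Both genes were highest on BAT replicate 3, and neither tissue overlapped the other. The summed intensity of the 35 genes was 14298, 25185 and 58467 on BAT replicates 1, 2 and 3, against 1259, 1386 and 1347 in WAT. Replicate 3 was the highest BAT array for 34 of the 35 genes, but for 2 of 14 thermogenic genes. Without BAT replicate 3, 30 of the 35 were called higher and the median was 3.06. Genes of fast fibres led the list, with 1207, 1831 and 4912 in BAT and 8.014, 11.2 and 11.2 in WAT for Atp2a1, their calcium pump. Fast troponin Tnnt3 differed by 6.35, the calcium buffer parvalbumin (Pvalb) by 6.04 and the actin Acta1 by 5.41. The members not called included the slow-fibre genes Tnnt1 and Myh7, 2 genes chosen after their values were seen. The slow-fibre troponins Tnni1 and Tnnc1, also of the list, were not both among the 3 not called. Slow-fibre genes thus did not all share 1 call, though all 35 muscle genes had a log2 difference above 0. All 35 were called higher after median centring, which called 47.4% of all genes higher. Tnnt1 had 334, 295 and 379 in BAT and 273, 360.1 and 294 in WAT (log2 difference 0.12, adjusted p = 0.61). Myh7 had 42.8, 28.4 and 70.4 in BAT and 27.7, 33.5 and 23.6 in WAT (log2 difference 0.47, adjusted p = 0.106), above every WAT array on replicates 1 and 3, and it was called higher under 5 other settings and Tnnt1 under 1, median centring.

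**Figure D3:**
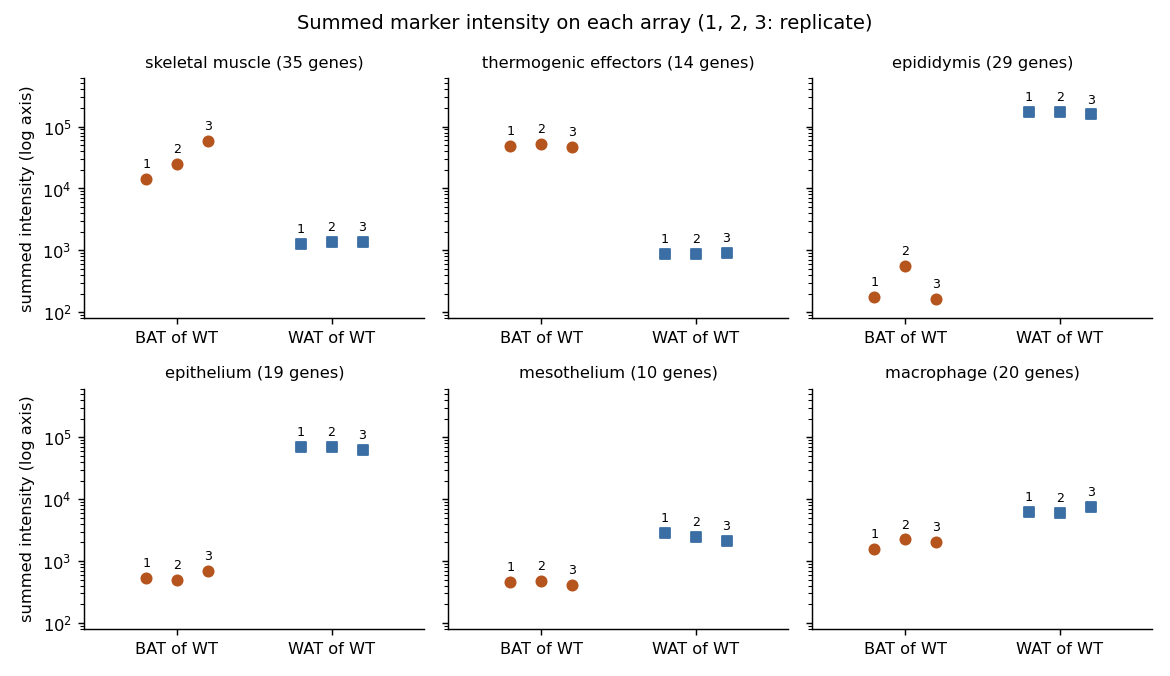
Summed PLIER intensity of 6 marker lists on each of the 6 arrays (log axis), BAT of WT left and WAT of WT right in each panel. Muscle genes sum to 14298, 25185 and 58467 on the BAT arrays and epididymis genes to 174111, 171175 and 157519 on the WAT arrays, and each of these lists is low in the other tissue.

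Immune and stromal markers were mostly lower in BAT. Of 20 macrophage genes 17 were lower in BAT and none higher (median -1.36), with Adgre1, the F4/80 antigen, at 38.2, 51.1 and 47.4 in BAT and 113, 165 and 182 in WAT. The lysosomal glycoprotein Cd68 had 74.1, 113 and 86.1 in BAT and 385, 327 and 517 in WAT. The protease Ctss differed by -2.32, lysozyme (Lyz2) by -2.02, the integrin Itgam by -1.98 and the growth factor receptor Csf1r by -1.42. Mesothelium, the lining of the body cavity, had 9 of 10 genes lower (7 of 10 after median centring, which called 19.2% of all genes lower), with Msln at 2.66, 14.2 and 11 in BAT and 148, 134 and 107 in WAT. The uroplakins Upk1b and Upk3b differed by -5.20 and -4.56, the Wnt agonist Rspo1 by -3.45, the membrane protein Gpm6a by -3.25 and Lrrn4 by -1.82. Of 24 fibroblast and matrix genes 19 were lower and 1 higher (16 and 1 after median centring), with the fibrillar collagen gene Col1a1 at 878, 797 and 1224 in BAT and 2355, 3018 and 4765 in WAT (log2 difference -1.75, adjusted p = 5.62e-05). The progenitor receptor Pdgfra differed by -2.33, the collagens Col6a1 and Col3a1 by -1.71 and -1.66 and the proteoglycans Bgn and Dcn by -1.70 and -1.53, while the mural receptor Pdgfrb was the one higher (0.55, adjusted p = 0.0474). Of 16 endothelial genes 8 were higher and 1 lower, and 12 and 0 after median centring, which called 47.4% of all genes higher. Among them the receptor gene Kdr, which senses vascular endothelial growth factor, had 667, 625 and 619 in BAT and 255, 298 and 350.3 in WAT (log2 difference 1.05, adjusted p = 0.000691), and the vessel marker Pecam1 did not pass (log2 difference 0.39, adjusted p = 0.142). The growth factor receptor Flt1 differed by 1.35, the sialomucin Emcn by 1.13, the angiopoietin receptor Tek by 1.0 and the junction cadherin Cdh5 by 0.70, and the clotting protein Vwf was lower (-0.60). Among 17 lymphocyte and NK-cell genes 2 were higher and 2 lower (11.8% each, against 20.3% and 30.3% of all genes). After median centring 10 were higher and 1 lower, so their balance is not settled. The T-cell coreceptor chains Cd8b1 and Cd8a were higher (0.51 and 0.40), the B-cell gene Ms4a1 was lower (-0.48), and the T- and B-cell receptor chains Cd3e (-0.01, adjusted p = 0.94) and Cd79a (-0.29, adjusted p = 0.116) did not pass. Klrb1c, a natural killer cell receptor, had 0.834, 0.904 and 0.00277 in BAT and 579, 549.9 and 445 in WAT (log2 difference -5.02, adjusted p = 8.33e-09). In whole tissue, fewer cells of a type and less RNA per cell cannot be told apart.

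Among smooth muscle and pericyte genes the contractile ones were lower. Of 10 measured, 6 were lower in BAT and 2 higher: Acta2, the smooth muscle actin, had 548, 354 and 709 in BAT and 2085, 2917 and 3353 in WAT (log2 difference -2.37, adjusted p = 4.33e-05), and its myosin Myh11 differed by -2.24, the actin binder Cnn1 by -2.59, Tagln by -1.76 and the myosin kinase Mylk by -1.66. Rgs5, a marker of pericytes, went the other way with 1340.0, 1464 and 1315 in BAT and 457, 566 and 497 in WAT (log2 difference 1.41, adjusted p = 0.000157), and so did desmin (Des), which skeletal muscle also makes (1.89). Among 10 genes of Schwann cells and nerve 4 were higher and 2 lower (40% and 20%, against 20.3% and 30.3% of all genes). S100b, a calcium-binding protein of glia and of adipocytes, had 684, 887 and 720.0 in BAT, against 115, 86.1 and 109 in WAT (log2 difference 2.71, adjusted p = 3.54e-08). The cadherin Cdh19 and the myelin protein Mbp were higher (1.26 and 0.71), the neuregulin receptor Erbb3 and the myelin protein Pmp22 lower (-3.09 and -0.79), and Th, which makes catecholamines in sympathetic nerves, did not pass (-0.06, adjusted p = 0.811). Of 3 red-cell genes Alas2, of haem synthesis, and Epb42, of the red-cell membrane, were higher (1.94 and 0.40).

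Thermogenic effectors were all higher in BAT. All 14 measured rose, with a median log2 difference of 5.54, and the counts of this list and of the 7 mitochondrial lists below were identical after median centring and after quantile normalization. Cidea, a protein of the lipid droplet abundant in brown fat, had 6404, 6296 and 5908 in BAT, against 10.4, 12.2 and 8.29 in WAT (log2 difference 7.89, SE 0.17, adjusted p = 1.59e-10). Dio2, which turns thyroxine into the active thyroid hormone, had 355, 579 and 554 in BAT, against 5.16, 7.07 and 7.28 in WAT (log2 difference 4.48, adjusted p = 4.84e-07). Elovl3, an elongase of very long fatty acids, had 782, 1053 and 990.4 in BAT, against 0.00642, 2.24 and 0.0102 in WAT, which is at the bottom of the scale. All BAT arrays of these 3 genes lay far above all WAT arrays. Fabp3, a fatty acid carrier of oxidative tissues, differed by 7.11, Otop1, a proton channel, by 5.97, Kcnk3, a potassium channel, by 4.40 and Plin5, which docks droplets to mitochondria, by 3.87 on the log2 scale (adjusted p = 2.56e-09, 4.33e-09, 1.66e-08 and 6.48e-09). Slc27a2, which activates long fatty acids, differed by 3.86. The smallest difference of the list was that of Pank1, a kinase of coenzyme A synthesis, with 2527, 2387 and 2239 in BAT and 286, 234 and 269 in WAT (log2 difference 3.11).

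Most transcriptional regulators of brown fat were higher as well. Of 20 measured, 14 were higher, 3 lower and 3 not called (median 0.79); after either other scaling 16 were higher and 2 lower. Ppargc1a, the coactivator that drives mitochondrial biogenesis, had 343, 272 and 283 in BAT, against 44.4, 55.2 and 49 in WAT (log2 difference 2.26, SE 0.24, adjusted p = 9.55e-06). Its relative Ppargc1b differed by 2.84 (adjusted p = 7.5e-07). Ppara, the nuclear receptor of fatty acid oxidation, had 987, 859.7 and 671 in BAT and 40.9, 47.7 and 61.8 in WAT, the largest difference of the list (3.69). All 3 estrogen-related receptors, nuclear receptors of mitochondrial genes, were higher, Esrra by 2.25, Esrrg by 1.33 and Esrrb by 0.58. Prdm16, which commits precursors to brown fat, had 146, 178 and 160.3 in BAT, against 70.8, 99.8 and 89.1 in WAT, with no overlap (log2 difference 0.80, adjusted p = 0.00146). Zic1, a marker of interscapular brown fat, differed by 0.78 (adjusted p = 0.00126), Ebf2, which marks brown precursors, by 2.13 and Irf4, a partner of Ppargc1a, by 1.98. Nrip1, a corepressor that restrains Ucp1, went down with 186, 187 and 127 in BAT and 627, 765 and 676 in WAT (log2 difference -1.96, adjusted p = 9e-07), and Zfp516 was also lower (-0.97).

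The respiratory chain was higher throughout. Of 118 measured genes of complexes I to IV, ATP synthase, the TCA cycle and fatty acid oxidation in mitochondria, 113 were higher in BAT, 3 lower and 2 not called, with a median log2 difference of 2.21. Complex I, which takes electrons from NADH, had 35 of 35 subunits higher, from 0.85 at Ndufa11 to 2.89 at Ndufb8, with a median of 2.08. Ndufs8 differed by 2.68, Ndufv1, which binds NADH, by 2.52, Ndufa8 by 2.05, Ndufv3 by 1.98 and Ndufa1 by 1.55. Ndufs1, its largest iron-sulfur subunit, had 3630.5, 3327 and 3424 in BAT, against 502, 515 and 506 in WAT (log2 difference 2.73, SE 0.17, adjusted p = 1.5e-07). Complexes II and III with cytochrome c had 14 of 14 higher (median 2.48), among them Sdhb of succinate dehydrogenase at 3664, 4033 and 3507 in BAT and 483, 459 and 404 in WAT (log2 difference 3.01). The electron carrier Cycs had 4984, 5788 and 5115 in BAT and 1049, 808 and 769.8 in WAT (log2 difference 2.58). In complex III the Rieske protein Uqcrfs1 differed by 2.80, cytochrome c1 (Cyc1) by 2.75, the core protein Uqcrc1 by 2.57 and Uqcrb by 2.15. Across the BAT arrays, replicate 3 was the highest BAT array at 8 of the 118, and without it the medians of these 3 lists were 2.09 (complex I), 2.50 (complexes II and III) and 1.94 (general subunits of complex IV).

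Complex IV, cytochrome c oxidase, has subunits made in every tissue and isoforms made in particular tissues, some of them in heart, muscle and brown fat. All 9 measured general subunits were higher in BAT, from 1.53 to 2.85, and all 5 tissue isoforms, from 0.63 to 7.03. Cox5a (2.85) and Cox7b (2.68) led the general subunits, and 2 of the isoforms, Cox8b and Cox7a1, are thermogenic effectors as well. Cox8b had 7251, 8024 and 6645 in BAT, against 26.6, 58.1 and 39.3 in WAT (log2 difference 7.03, SE 0.24, adjusted p = 4.33e-09), and its general counterpart Cox8a differed by 1.61. Cox7a1 had 6847, 7439 and 6517 in BAT, against 59.7, 72.2 and 59.9 in WAT (log2 difference 6.44, SE 0.17, adjusted p = 1.02e-09), and Cox7a2 differed by 2.04. Every BAT array of both isoforms was above every WAT array. Cox6a2 had 89.6, 248 and 478 in BAT and 40.2, 53.6 and 37.2 in WAT (log2 difference 2.02, adjusted p = 0.00324), with replicate 3 the highest and replicate 1 the lowest BAT array, the order of the summed muscle genes, and Cox6a1 differed by 2.31. Cox4i2 (0.63) and Cox6b2 (0.77) differed by less than Cox4i1 (1.57) and Cox6b1 (1.90).

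ATP synthase, which makes ATP from the proton gradient, was mostly higher. Of 16 measured genes 13 were higher, 2 lower and 1 not called, with a median of 1.42. The catalytic subunit Atp5b had 9676, 9034 and 9792 in BAT, against 3828, 4085 and 3879 in WAT (log2 difference 1.27, adjusted p = 5.31e-06), and its partner Atp5a1 differed by 1.49. The stalk subunits Atp5e and Atp5d differed by 2.17 and 1.85 and the membrane subunit Atp5j2 by 2.19. The 3 genes of the membrane ring, which encode the same mature protein, went different ways: Atp5g1 had 57.8, 149 and 211 in BAT and 701, 698 and 676 in WAT (log2 difference -2.33, adjusted p = 0.000342), Atp5g2 differed by 0.71 and Atp5g3 by -0.03 (adjusted p = 0.896). Atpif1, which blocks ATP synthase when it runs backwards, had 309, 324 and 305 in BAT, against 1687, 1545 and 1408 in WAT (log2 difference -2.25, SE 0.18, adjusted p = 1.49e-06). It was lower on every BAT array.

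Of 17 measured genes of the TCA cycle and pyruvate dehydrogenase 16 were higher and none lower (median 2.43). Cs, which opens the cycle by making citrate, had 6708, 5486 and 6445 in BAT, against 1155, 1281 and 1173 in WAT (log2 difference 2.35, adjusted p = 5.33e-07). Sucla2, a subunit of succinyl-CoA ligase, differed most at 3.53, Idh3a of isocitrate dehydrogenase by 3.17, Suclg1, the partner of Sucla2, by 3.11 and Dlst and Ogdh of the oxoglutarate dehydrogenase by 2.64 and 2.28. Pcx, which makes oxaloacetate from pyruvate, was the member not called, with 2837, 1873 and 2214 in BAT and 1952, 2168 and 1969 in WAT (log2 difference 0.16, adjusted p = 0.6).

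Fatty acid oxidation in mitochondria had 21 of 22 genes higher and 1 lower (median 2.68). Acadvl, the dehydrogenase of very long chains, had 5481, 4658 and 4944 in BAT, against 333, 354 and 335 in WAT (log2 difference 3.82, SE 0.17, adjusted p = 2.73e-08). Slc25a20, the carnitine carrier of the inner membrane, differed by 3.66, Hadhb of the trifunctional protein by 3.61 and Cpt2, the inner carnitine palmitoyltransferase, by 2.74 on the log2 scale. Acadl, the dehydrogenase of long chains, differed by 3.39 and the thiolase Acaa2 by 3.11. The gene that went down was Cpt1a, the liver-type carnitine palmitoyltransferase of the outer membrane, with 93.2, 134 and 116 in BAT and 755, 796 and 857 in WAT (log2 difference -2.66, SE 0.18, adjusted p = 3.19e-07). On the WAT array of KO that held less epididymis signal, described below, Cpt1a was also lower. Its muscle-type paralogue is not analysed here. Peroxisomes, which shorten very long chains, differed less: 17 of 24 genes were higher and 2 lower (median 0.97). Phyh, which starts the breakdown of phytanic acid, differed by 2.49, Abcd3, a transporter of the peroxisomal membrane, by 1.85, the bifunctional enzyme Ehhadh by 1.33 and the racemase Amacr by 1.78, while Abcd2, another such transporter, had 240.1, 254 and 318 in BAT and 1780.3, 1632 and 1552 in WAT (log2 difference -2.55, adjusted p = 1.08e-05). The oxidase Acox3 was also lower (-1.98), and the thioesterase Acot4 did not pass (0.60, adjusted p = 0.138).

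The upstream bases of the mitochondrial genes were read from the RefSeq promoter table of assembly GRCm38.p6, which held 101 of the 118. Counted on either strand of the 250 bases before the start, the 7 letters GCATGCG, the core of the motif of nuclear respiratory factor 1, stood in 16 of the 101 genes (15.8%), against 4.58% of 15558 genes. The 7 letters AAGGTCA, the core of the estrogen-related receptor site, stood in 6 of the 101 (5.94%), against 4.0% of all. The first motif was added after values had been seen, and a match is a description, not a bound site. Of 68 mitochondrial ribosomal protein genes 11.8% held the first motif, of 46 cytosolic ones 2.17%, and of 23 epididymis genes none. The second motif stood in 4.41%, 8.70% and 8.70% of these sets in turn. Among genes called higher 5.64% held the first motif and 4.36% the second, and among genes called lower 5.39% and 3.05%. Dinucleotides of C followed by G numbered 14 per window at the median of the mitochondrial promoters, 2 in epididymis promoters and 11 over all. All 16 genes with the first motif were higher in BAT, as most of the 118 were; of the 6 with the second 4 were higher, Atpif1 was lower and Atp5g3 was not called. The 4 stretches below come from genes that were higher, each running toward its gene, with the motif in capitals: the first 3 of them hold the respiratory factor core and the last the receptor core.
Etfdh, chr3:79628861-79628920, minus strand: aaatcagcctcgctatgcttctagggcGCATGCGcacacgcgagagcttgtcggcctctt
Sdhb, chr4:140961190-140961249, plus strand: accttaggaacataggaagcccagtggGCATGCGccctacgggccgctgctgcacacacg
Cycs, chr6:50566597-50566656, minus strand: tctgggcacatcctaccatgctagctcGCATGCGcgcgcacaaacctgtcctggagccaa
Ndufb2, chr6:39592357-39592416, plus strand: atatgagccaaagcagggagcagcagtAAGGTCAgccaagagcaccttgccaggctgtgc
In Etfdh, which passes electrons from fatty acid oxidation to ubiquinone, the motif began 126 bases before the annotated start, in Sdhb 54, in Cycs 60 and in Ndufb2 181 bases. Etfdh had 4930.2, 4295 and 4800.5 in BAT and 532, 535 and 515 in WAT (log2 difference 3.11), and Ndufb2, a small subunit of complex I, had 566, 694 and 513 in BAT and 162, 124 and 129 in WAT (log2 difference 1.97).

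Mitochondrial ribosomal proteins were mostly higher and cytosolic ones mostly lower. Of 77 genes taken by their mitochondrial ribosomal symbols alone, 73 were higher in BAT and 1 lower, with a median of 1.23. Whether each product is part of the ribosome was not checked. Among these symbols Mrps36 differed most (2.94), followed by Mrpl34 (2.90), with Mrpl42 at 2.30. Mrps6 was the one lower (-1.30, limma adjusted p = 5.85e-06). Of 58 cytosolic ribosomal proteins 51 were lower and 2 higher, with a median of -0.76; after median centring 38 were lower and 3 higher, and after quantile normalization 50 and 3. Rpl10 had 2806, 3006 and 2651 in BAT, against 8069.8, 7836 and 7419 in WAT (log2 difference -1.46, adjusted p = 4.15e-06). Rpl4 differed by -1.32, Rpl6 by -1.26 and Rps4x by -1.18. Rps27l, a paralogue induced by p53, differed by 1.13 (adjusted p = 3.55e-05) and Rpl39l, a testis-type paralogue, by 0.43. Many ribosomal genes have near-identical pseudogenes whose RNA these probes could also measure. Among 46 carriers of the Slc25 family, which move metabolites and nucleotides across the inner membrane, 25 were higher and 11 lower, from -3.12 at Slc25a13, an aspartate-glutamate carrier (6.03, 10.9 and 11.8 in BAT, 193, 212 and 213 in WAT), to 3.66 at Slc25a20. Slc25a42, a coenzyme A carrier, differed by 2.58, Slc25a33, a pyrimidine nucleotide carrier, by 2.42, Slc25a30 by -1.87 and Slc25a10, the dicarboxylate carrier, by -2.97.

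**Figure D4:**
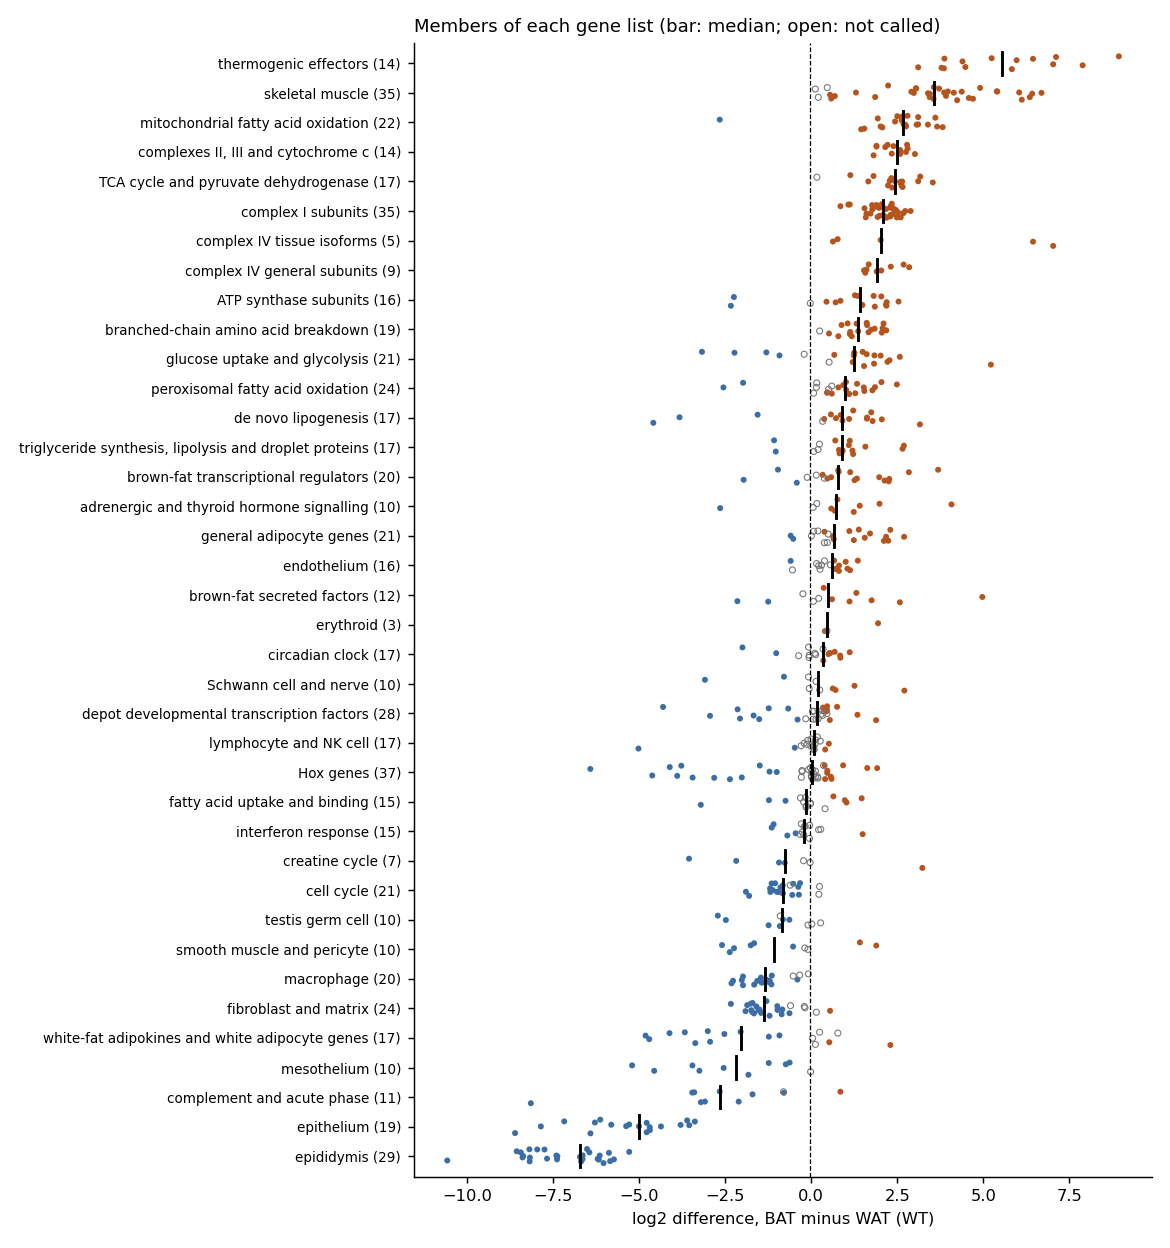
Log2 difference, BAT minus WAT of WT, of each measured member (1 point) of 38 gene lists, 1 list a row (cell type markers included), with a bar at the list's median; filled points passed limma at an adjusted p under 0.05 and the dashed line is the median of all genes, -0.03. Thermogenic, muscle, fatty acid oxidation and respiratory chain lists lie to the right, with medians up to 5.54, and epididymis and epithelium lists to the left, with medians of -6.72 and -5.00.

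Lipid synthesis was also higher in BAT, though the desaturases divided. Of 17 genes of de novo lipogenesis 13 were higher and 3 lower (median 0.91). Fasn, fatty acid synthase, had 10788, 8891 and 10015 in BAT, against 3600.3, 4559.9 and 4606 in WAT (log2 difference 1.22, SE 0.16, adjusted p = 6.19e-05). Acly, which makes acetyl-CoA from citrate, differed by 0.57 (adjusted p = 0.0174), Acaca by 1.74, the elongase Elovl6 by 1.62 and Mlxipl, the carbohydrate-sensing factor that switches on these genes, by 1.62. Acacb, the acetyl-CoA carboxylase at mitochondria whose malonyl-CoA holds back carnitine palmitoyltransferase, differed most, with 3414, 2811 and 3246 in BAT and 432, 348 and 257 in WAT (log2 difference 3.16, adjusted p = 7.69e-07). The front-end desaturases that make polyunsaturated fatty acids were far lower: Fads2 had 88.5, 70.3 and 102 in BAT, against 2330.1, 2393 and 2609 in WAT (log2 difference -4.59, adjusted p = 6.22e-06), and Fads1 differed by -3.83. Scd1, the stearoyl-CoA desaturase, differed by 0.38 (adjusted p = 0.00968), and Scd2 was lower (-1.56). On the WAT array of KO that held less epididymis signal, described below, Fads1 and Fads2 were also lower.

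Genes of triglyceride synthesis, lipolysis and the droplet were higher at 12 of 17 and lower at 2 (median 0.89). Dgat2, which adds the last acyl chain, had 8865, 7956 and 8455 in BAT, against 4568, 4037 and 4799 in WAT (log2 difference 0.92, adjusted p = 0.00139), and Gpam, which adds the first, differed by 1.12. The acyltransferase Agpat3 differed by 0.89, the lipase inhibitor G0s2 by 1.57 and the monoglyceride lipase Mgll by 0.70, and the phosphatase Lpin2 was lower (-1.03). Plin2, a droplet coat protein of oxidative cells, differed by 2.65, while Plin4, a coat protein of white adipocytes, had 998, 882 and 959 in BAT and 2154, 2124 and 1785 in WAT (log2 difference -1.08, adjusted p = 0.00389). Fitm1, a droplet protein of muscle, had 68.7, 578 and 1206 in BAT and 42.9, 55.3 and 38.2 in WAT, again highest on replicate 3 and lowest on replicate 1 (log2 difference 2.69, adjusted p = 0.0215). Without BAT replicate 3 that difference was 1.88 and was not called (adjusted p = 0.0965). Fatty acid uptake and binding had no common direction: 4 of 15 were higher and 3 lower (26.7% and 20%, against 20.3% and 30.3% of all genes). Their median of -0.14 turned to 0.17 after median centring and 0.09 after quantile normalization. Got2, an aminotransferase of the malate-aspartate shuttle that also binds fatty acids, had 218, 241 and 346 in BAT and 2478, 2623 and 2598 in WAT (log2 difference -3.21, adjusted p = 3.49e-05). Vldlr, a receptor that brings in lipoprotein, went the other way (1.47), as did Gpihbp1, which holds lipoprotein lipase on capillaries (1.03), the lipase inhibitor Angptl4 (0.98) and the acyl-CoA synthetase Acsl6 (0.64). The transporter Slc27a4 was lower (-0.75). The fatty acid transporter Slc27a1 (-0.31, adjusted p = 0.187) and the carrier Fabp5 (0.40, adjusted p = 0.249) did not pass.

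Genes shared by brown and white adipocytes were higher at most members. Of 21 measured, 13 were higher and 2 lower (median 0.66), and neither other scaling left any lower. Fabp4, the adipocyte fatty acid carrier, had 7471, 8057 and 7338 in BAT, against 6061, 5868 and 5564 in WAT (log2 difference 0.39, adjusted p = 0.00726), and the droplet coat Plin1 (0.19, adjusted p = 0.533) and its partner Cidec (0.07, adjusted p = 0.804) did not pass. Pparg, the master regulator of fat cells, had 2171, 1828 and 1954 in BAT, against 789, 823 and 880.2 in WAT (log2 difference 1.24, SE 0.27, adjusted p = 0.00205). Cebpb, an early adipogenic factor, differed by 2.30, Cebpa by 0.66 (adjusted p = 0.0432) and Cebpd by -0.60 (adjusted p = 0.0141), but the call on Cebpa was lost when any 1 of the 6 arrays was left out and that on Cebpd under both other scalings. Rxra, the partner of Pparg, differed by -0.52 and Agpat2, which makes phosphatidic acid, by 2.11. Gpd1, which makes the glycerol backbone of triglyceride, differed most of the list, with 10421, 9623 and 10259 in BAT and 1436, 1549.8 and 1647 in WAT (log2 difference 2.70), and Slc2a4, the insulin-responsive glucose transporter, differed by 2.18.

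Sugar use was higher at most steps, with isoenzymes on both sides. Of 21 genes of glucose uptake and glycolysis 15 were higher and 4 lower (median 1.25). Hk2, the insulin-responsive hexokinase, had 2186, 1407 and 2862 in BAT, against 608, 724 and 788 in WAT (log2 difference 1.53, adjusted p = 0.000101), and Hk1 went the other way with 1975, 2333 and 2049 in BAT and 4110.1, 3836 and 4113 in WAT (log2 difference -0.92, adjusted p = 9.22e-05). Aldoa was higher (1.24) and its brain-type isoenzyme Aldoc lower (-3.17). Slc2a1, the basal glucose transporter, had 119, 103 and 106 in BAT and 269, 295 and 316 in WAT (log2 difference -1.30), opposite to Slc2a4. Among the kinases that switch off pyruvate dehydrogenase, Pdk4 had 3561, 3548 and 3451 in BAT, against 88.2, 81.9 and 67.7 in WAT (log2 difference 5.22, SE 0.19, adjusted p = 7.44e-09), the largest difference of the list, and Pdk3 had 29.5, 29.1 and 29.6 in BAT and 190.1, 196 and 205 in WAT (log2 difference -2.23). Slc16a1, a carrier of lactate and ketone bodies, differed by 2.57, the glycolytic kinase Pgk1 by 2.02 and Ldhb, the lactate-oxidising dehydrogenase, by 1.82.

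Breakdown of branched-chain amino acids was higher at 18 of 19 genes (median 1.37). The subunits of the branched-chain dehydrogenase, its committed step, differed by 2.18 (Bckdha), 1.74 (Bckdhb) and 2.05 (Dbt), with Bckdha at 2982, 2648 and 2756 in BAT and 670.2, 599 and 547 in WAT. Slc25a44, which carries these amino acids into mitochondria, differed by 1.32, the hydrolase Hibch by 2.10, the hydratase Auh by 1.84 and Ivd, of leucine breakdown, by 1.06, and Bcat2, the transaminase of the first step, did not pass (0.24, adjusted p = 0.442). The creatine cycle did not share this direction: 4 of 7 genes were lower and 1 higher (median -0.77). Gamt, which completes creatine synthesis, had 47.7, 39.2 and 52.7 in BAT, against 758, 736 and 651 in WAT (log2 difference -3.55, SE 0.30, adjusted p = 1.84e-06), Gatm, which starts it, differed by -0.77, Alpl, a phosphatase, by -2.18 and the brain-type kinase Ckb by -0.94. The creatine transporter Slc6a8 did not pass (-0.03, adjusted p = 0.854). Ckmt2, the mitochondrial creatine kinase of striated muscle, was higher with 67.3, 174 and 369.7 in BAT and 1.74, 4.31 and 4.58 in WAT (log2 difference 3.23), in the order of the muscle genes across the BAT arrays.

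Hormone signalling was measured at 10 of the 17 genes listed, and the adrenergic receptors themselves are not analysed here. Of the 10, 7 were higher and 1 lower (median 0.72), which is 70% and 10%, against 20.3% and 30.3% of all genes. After median centring 9 were higher and 1 lower, beside 47.4% and 19.2% of all genes. The adenylyl cyclases, which make cyclic AMP, went opposite ways: Adcy3 had 1246, 1840.3 and 1544 in BAT, against 63.2, 83 and 81.3 in WAT (log2 difference 4.08, SE 0.23, adjusted p = 8.39e-08), and Adcy5 had 32.6, 18.5 and 28.6 in BAT, against 249, 254 and 241 in WAT (log2 difference -2.65, SE 0.24, adjusted p = 2.71e-06). Prkar2b, a regulatory subunit of protein kinase A, differed by 1.98 and the thyroid hormone receptor Thrb by 1.41. Secreted factors of brown fat were higher at 7 of 12 and lower at 2 (median 0.48), which is 58.3% and 16.7%. With median centring these counts were 9 and 2. Kng2, a kininogen, the precursor of bradykinin, had 1000.0, 907 and 791 in BAT, against 9.0, 12.1 and 18.9 in WAT (log2 difference 4.97, adjusted p = 8.61e-09). Its relative Kng1 had 89.2, 103 and 79.7 in BAT, against 2.19, 0.942 and 2.31 in WAT (log2 difference 2.58). Their sequences are close, so the probes may not separate them. Nrg4, a growth factor that acts on liver, differed by 1.75, Vegfa, which draws vessels, by 1.11, Fgf21 by 0.60 and Bmp8b by 0.36 (adjusted p = 0.0491), a call that 8 other settings did not keep. Endothelin (Edn1), a vasoconstrictor, was lower (-1.25). Slit2, a guidance protein, had 9.96, 15.7 and 15.5 in BAT and 87, 113 and 153 in WAT (log2 difference -2.15).

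White adipocyte genes were mostly lower in BAT. Of 17 measured, 11 were lower and 2 higher (median -2.05). Nnat, a membrane proteolipid of white adipocytes, had 63.4, 80.6 and 99.1 in BAT, against 2835, 2778 and 2448 in WAT (log2 difference -4.81, SE 0.32, adjusted p = 2.76e-07). Angiotensinogen (Agt), the precursor of the pressor angiotensin, had 9.04, 6.62 and 26.9 in BAT, against 834, 691 and 702 in WAT (log2 difference -4.71, adjusted p = 1.55e-08), and Mest, an imprinted gene of fat expansion, differed by -4.12 and Sncg by -3.67. Apln, a vasoactive adipokine, was higher (0.52). Nampt, an enzyme of NAD synthesis, was higher in BAT with 2552, 2803 and 2380.2 against 547, 504 and 479.6 in WAT (log2 difference 2.30, adjusted p = 1.79e-06). Complement and acute-phase genes were lower at 9 of 11 and higher at 1 (median -2.66). Lcn2, an iron-binding lipocalin made by fat and by epithelia, had 17.9, 21.3 and 16.7 in BAT, against 9635, 9811 and 9886 in WAT (log2 difference -8.15, SE 0.39, adjusted p = 3.31e-08). C7, a late complement component, differed by -3.46, C4b, of the classical pathway, by -3.21, Cfb, of the alternative pathway, by -3.40 and Cp, a copper oxidase, by -2.66, and Orm1 was higher (0.85). The WAT arrays on which these genes were high also carried the epididymis and epithelium genes, and which cells made the RNA was not tested.

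Genes of depot identity had no common direction. Of 28 developmental transcription factors 9 were higher and 9 lower (32.1% each, against 20.3% and 30.3% of all genes), with a median of 0.17, and 16 and 7 after median centring (47.4% and 19.2% of all genes). As a list they thus lay near the shares of all genes, and the values of single members follow. Tcf21, a factor of visceral mesenchyme, had 6.72, 1.89 and 0.00307 in BAT, against 108, 125 and 153 in WAT (log2 difference -2.94, SE 0.19, adjusted p = 2.2e-07), and Nr2f2 differed by -1.51. Wt1, a factor of visceral fat and mesothelium, had 41.6, 47.5 and 23.6 in BAT and 113, 98.8 and 112 in WAT (log2 difference -1.23, adjusted p = 0.000751). Emx2, which the male genital tract also expresses, had 0.00651, 0.00635 and 0.00296 in BAT and 287, 293 and 322 in WAT. Tbx15, a factor of brown and subcutaneous fat, had 55.3, 55.4 and 138 in BAT, against 9.31, 4.71 and 13.7 in WAT (log2 difference 1.89, SE 0.29, adjusted p = 0.000209). Its BAT arrays lay above those of WAT, with replicate 3 the highest. The limb factor Tbx5 differed by 1.34 and the Iroquois factors Irx3 and Irx5 by 0.44 and 0.54.

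Hox genes, which set position along the body axis, differed in both directions. Of 37 measured 9 were higher and 12 lower (24.3% and 32.4%, near the 20.3% and 30.3% of all genes; median 0.01), and 19 and 12 after median centring. The counts alone therefore say nothing particular to the family. Hoxb6 had 62.3, 53.3 and 78.1 in BAT, against 6792, 6599 and 7082 in WAT (log2 difference -6.42, SE 0.50, adjusted p = 1.06e-06). Hoxb7 (-4.62), Hoxd3 (-4.11), Hoxc8 (-3.89), Hoxd4 (-3.77), Hoxb9 (-3.45) and Hoxd9 (-2.82) were lower too, and none of their BAT arrays reached a WAT array. On the other side Hoxa4 had 266, 213 and 234 in BAT, against 55.4, 42.6 and 55.7 in WAT (log2 difference 1.92, adjusted p = 3.16e-07), Hoxa5 had 618, 542 and 562 in BAT, against 149.5, 161 and 221 in WAT (log2 difference 1.63), and Hoxa2 differed by 0.93. The large falls lay in clusters B, C and D and the 3 largest rises in cluster A. By position, grouped after values were seen, paralogues 6 to 8 had 5 of 7 lower and none higher (median -2.36), paralogues 1 to 5 had 4 of 14 higher and 5 lower, and paralogues 9 to 13 had 5 of 16 higher and 2 lower (median 0.15). Hoxc9, often used as a white-fat marker, did not pass (43.3, 58 and 66.3 in BAT, 56.5, 54 and 47.9 in WAT, log2 difference 0.05, adjusted p = 0.757). Several of these genes also followed the epididymis signal across WAT arrays, as described below for KO replicate 3.

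**Figure D5:**
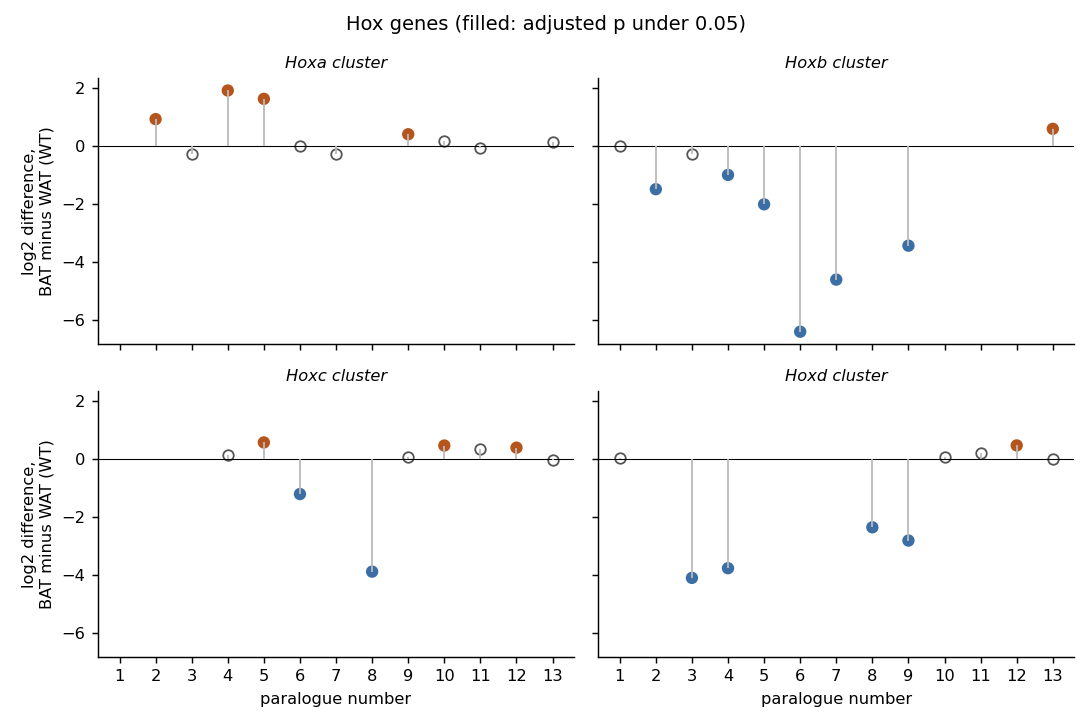
Log2 difference, BAT minus WAT of WT, of 37 Hox genes by paralogue number (1 to 13, horizontal axis), 1 panel for each of clusters A to D; filled points passed limma at an adjusted p under 0.05. Hoxb6 is lowest at -6.42, Hoxa4, Hoxa5 and Hoxa2 are the largest rises, and cluster A holds no gene lower by the test.

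Clock genes differed modestly. Of 17 measured, 8 were higher and 2 lower (47.1% and 11.8%, against 20.3% and 30.3% of all genes). Their median was 0.35, against -0.03 over all genes. After either rescaling 9 were higher and 2 lower. The median was then 0.65 with median centring (0.28 over all genes, 47.4% of them higher). With quantile normalization it was 0.46 (0.14 over all genes, 34.7% of them higher). Hlf, a clock output factor, had 668, 597 and 636 in BAT, against 303, 231 and 323 in WAT (log2 difference 1.12, adjusted p = 4.74e-05), and Nfil3 differed by 0.85 and Cry1 by 0.54. Arntl, the positive arm of the loop, had 51.1, 61.8 and 37.9 in BAT and 93.7, 141 and 119.6 in WAT (log2 difference -1.02, adjusted p = 0.00255), and Bhlhe41, a repressor, differed by -2.0. Per1 (-0.07, adjusted p = 0.783) and the output factor Dbp (0.11, adjusted p = 0.736) did not pass. All mice were killed at the same time, so a difference in phase was not tested. Cell cycle genes were lower at 18 of 21 and higher at none (median -0.83), beside 30.3% of all genes lower. After median centring 12 were lower and 2 higher, beside 19.2% of all genes lower. After quantile normalization 14 were lower and 2 higher, beside 22.5% of all genes lower. Mki67, a marker of dividing cells, had 18, 25 and 37.1 in BAT, against 51.6, 79.1 and 110.2 in WAT (log2 difference -1.15, adjusted p = 0.00294), and Top2a, which untangles DNA, differed by -1.90. Ccna2, a cyclin, differed by -1.80, the replicative helicase genes Mcm4 and Mcm6 by -1.12 and -1.0 and Cdk1 by -0.82. Interferon-response genes had no settled direction, with 1 of 15 higher and 4 lower (3 and 2 after median centring). These are 6.67% higher and 26.7% lower before centring, against 20.3% and 30.3% of all genes. Rsad2, an antiviral enzyme, had 159.6, 153 and 176 in BAT and 47.5, 44.1 and 50.9 in WAT (log2 difference 1.49, adjusted p = 2.35e-07). Irf7, which drives interferon genes, was lower (-1.09), as were Oasl2 (-1.15), Ifit3 (-0.69) and Ddx58, a sensor of viral RNA (-0.45), and Ifit1 did not pass (-0.32, adjusted p = 0.166).

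Marker genes were frequent among the largest rises and less so among the largest falls, where 32 of 50 were in no list. Among the 50 largest rises 17 were skeletal muscle genes and 13 thermogenic effectors, and among the 50 largest falls 14 were epididymis and 3 epithelium genes of the lists. Outside the lists stood Slc38a5, a glutamine transporter, with 184, 202 and 196 in BAT and 196416, 231478 and 218195 in WAT (log2 difference -10.0, SE 0.40, adjusted p = 1.25e-08). Wfdc10, of the whey acidic protein family (-9.30), and Teddm2, of a family named for the epididymis (-9.29), came next. Some gene families that hold the epididymis and epithelium genes above were lower at many members, and others were not: of 39 beta-defensins 24 were lower and 1 higher, of 11 lipocalins 7 and 1, of 12 Spink protease inhibitors 7 and none, and of 10 Pate genes 6 and none. Of 23 claudins, proteins of the tight junction, 12 were lower and 1 higher. Cystatins, the family of Cst11, had 2 of 8 lower and 2 higher (median -0.03). Serpins of clade A had 3 of 14 lower and 2 higher (median 0.22). Keratins had 8 of 52 lower and 11 higher (median 0.15), beside 30.3% lower and 20.3% higher over all genes. The largest falls also sat side by side in the genome, by the gene order of GRCm38.p6. Of the 100 largest falls 24 had another of the 100 as the next measured gene, against 5 of the 99 placed among the 100 largest rises. Lcn8, Lcn5, Lcn6 and Lcn10 were 4 neighbours on chromosome 2, Pate6, Pate5 and Pate13 were 3 on chromosome 9, and the fast myosin genes Myh2, Myh1 and Myh4 were 3 on chromosome 11.

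Muscle signal moved with part of the rises across the BAT arrays. Of 4045 genes called higher, 75 were at least 2-fold higher on BAT replicate 3 than on BAT replicate 1, 29 of them from the muscle list, and 2 were at least 2-fold the other way. Among the 100 largest rises the first number was 33, with 25 from the muscle list. Genes not called higher were not counted this way, so how far the rises stand out in it was not tested. Leaving out BAT replicate 3 gave 9189 called genes, within the range of 8610 to 9400 that leaving out single WT arrays gave. Epididymis signal in BAT was highest on replicate 2 (21 of 29 genes), at 0.0121% of all signal.

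The same tissue difference was measured in KO mice, on other arrays. There 4021 genes were higher in BAT (20.2%) and 5352 lower (26.9%). Of the 4045 genes higher in WT, 3000 (74.2%) were also higher in KO, which is 74.6% of those higher in KO, and of the 6044 lower, 4821 (79.8%), which is 90.1% of those lower in KO. By the test of the difference itself, 118 of 19933 genes (0.592%) had a tissue difference that was not the same in WT and KO, 55 with a higher and 63 with a lower BAT minus WAT value in WT than in KO. The size of the difference, whatever its sign, was larger in WT at 99 of the 118. Of the 14 thermogenic effectors 13 were among them, or 9 to 12 when 1 array other than WAT of KO replicate 3 was left out, and their median was 5.54 in WT and 2.69 in KO. Ucp1 differed by 8.94 in WT and by 1.80 in KO, with 10517, 10961 and 11114 in BAT of KO and 2554, 2665 and 4449 in WAT of KO (adjusted p of the difference = 5.62e-08), so BAT of KO lay within the range of BAT of WT, and all 3 WAT arrays of KO lay above all WAT arrays of WT. Muscle, epididymis and epithelium lists had 0 of 35, 0 of 29 and 0 of 19 genes past this test by limma (unadjusted p under 0.05 at 17, 1 and 1). Without WAT of KO replicate 3, which stood apart from the other WAT arrays, 372 genes passed. That array also enters the spread behind the SE and p of WT genes. Without it 11181 genes were called between BAT and WAT of WT, instead of 10089. Leaving out BAT of WT replicate 1, any 1 WAT array of WT or any 1 BAT array of KO gave 59 to 76 genes instead of 118, so this number depends on single arrays.

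That array held less epididymis signal than the other WAT arrays. Its summed epididymis genes were the last of 164145, 170926 and 41638 in WAT of KO, and its epithelium genes the last of 61545, 64092 and 12679.6. The genes lower in BAT of WT by at least 2-fold numbered 2410. On this array 845 of them were at least 2-fold lower than on both other WAT arrays of KO, and 85 at least 2-fold higher. The same counts over all genes were not made, so these numbers do not set the falls apart from other genes. Hoxb6 had 7544, 7816 and 1338 in WAT of KO, Hoxd3 had 2552, 2835 and 109.8 and Emx2 had 389, 428 and 60.2, so all 3 were lowest where epididymis signal was lowest. Fads2 (2632, 2562 and 541), Lcn2 (7721, 8313 and 2129), Got2 (2724, 2797 and 745), Gamt (753, 779 and 271), Alpl (766, 933 and 184) and Slc38a5 (155789, 169487 and 41032) had the same order. The 3 genes of the mitochondrial lists lower in BAT were also lowest there: Cpt1a (819, 894 and 521), Atpif1 (1556, 1366 and 819) and Atp5g1 (595, 655 and 292). So was the peroxisomal oxidase Acox3 (1163, 1235 and 352). Hoxc8 stood the other way, with 514, 561 and 1132 in WAT of KO, and so did the white adipocyte genes Nnat (2751, 3096 and 6229), Retn (2259, 1923 and 4706), Lep (674, 684 and 1895) and Plin4 (1849, 2027 and 4469). The peroxisomal transporter Abcd2 (1444, 1450 and 3442) did as well. Of the 11 white adipocyte genes lower in BAT, 11 were higher on this array than on both others, and of the 12 lower Hox genes 10 were lower on it than on both. It is 1 array of KO mice and was the highest of the WAT arrays of KO in thermogenic genes too, which summed to 7897, 8159 and 13433, so these values carry no test.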

How the data were processed

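Total RNA of BAT and WAT was hybridised to 1-colour Affymetrix arrays, and the deposited intensity values were summarised with PLIER, per the submitters' processing notes; no source used here gives its version, background step or scaling of arrays. The authors' tables carry p-values made with Cyber-T 8.01 (hdarray 3.71, R 2.2.1), per the file headers, on linear values and on natural logs, and a signed fold deposited as a score. Of 35557 transcripts 28925 had been tested by the authors, 21789 named 1 gene, 1621 several and 12147 none. The brightest tested transcript of each gene over 12 arrays was kept, giving 19933 genes. The tables repeat the value table's intensities, and 18 further per-sample columns were not used. Symbols were looked up by gene ID in the RefSeq table (GRCm38.p6), which missed 91 transcripts. PLIER values carry no detection call, so the number of arrays limits the precision.

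Values were taken as log2(intensity + 16) and limma 3.58.1 (R 4.3.3) fitted 4 group means over 12 arrays (8 residual and 3.512 prior degrees of freedom), with Benjamini-Hochberg adjustment and a threshold of 0.05. The difference between the WT and KO tissue differences was a contrast of the same fit. Tested on simulated data of 19933 genes for BAT minus WAT in WT, the fit recovered 34% of 50 genes changed by a log2 of 0.585. At 1, 2 and -1 it recovered 82%, 96% and 78% of 50 genes each, with 8 false calls among 19733 unchanged genes. The simulation drew independent noise with 1 spread per gene and changed few genes, whereas 10089 of the real genes were called. Its recovery and false calls therefore cannot be carried over to the real data. Alternatives were other added constants (1 and 64), quantile and median scaling, fewer arrays, a variance trend, a replicate block, brighter genes, all transcripts, the authors' p-values and a 2-fold minimum.

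The gene lists and comparisons were chosen with earlier results of these data known. Genes named were Per2, the 12 largest rises and 12 largest falls without overlap, and of each list its first 3 members, up to 3 more called genes of lowest p in its main direction and up to 2 in the other, the complex IV isoforms, and examples from the lists. Other genes were named after values were seen. Proteins were not used here.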

Additional observations from a re-analysis of the deposited data

Results flagged for a closer look

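Of the genes named above and below, 26 had a tissue difference that limma's test of the difference itself found unequal in WT and KO mice, with an adjusted p between 5.62e-08 and 0.0498 over 19933 genes. Values here are the log2 difference BAT minus WAT in WT less the same in KO, so a positive value means that BAT stood further above WAT in WT. Among the thermogenic effectors it was 7.14 for Ucp1 (8.94 in WT, 1.80 in KO), 5.56 for Cidea, 4.36 for Cox8b, 4.10 for Fabp3, 3.73 for Cox7a1 and 2.83 for Otop1. It was 2.63 for Elovl3, 1.75 for Kcnk3, 1.28 for Plin5, 0.97 for Slc27a2 and 0.73 for Pank1. Cidea had 6415, 6414 and 6759 in BAT of KO and 1114, 1051 and 1822 in WAT of KO, so its WAT arrays of KO lay above those of WT, as for Ucp1.

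In fatty acid oxidation it was 1.68 for Hadhb, 1.58 for Acadvl, 1.36 for Acadl, 1.30 for Slc25a20 and 1.22 for Acaa2. In other fuel use and mitochondrial genes it was 2.59 for Pdk4, 1.39 for Sucla2, 1.33 for Coq8a, 0.99 for Suclg1 and 0.79 for Mrpl34, and 1.81 for the kininogen gene Kng2 and 1.08 for the antiviral gene Rsad2. Genes further below WAT in BAT of WT than in BAT of KO were Klrb1c (-4.44), Slc25a10 (-1.33) and Lpin2 (-0.96). Klrb1c had 0.000908, 0.00303 and 1.59 in BAT of KO and 17.2, 1.48 and 10.2 in WAT of KO, so the high level in WAT of WT was not seen in WAT of KO. Without WAT of KO replicate 3, all 26 passed, with adjusted p from 1.09e-11 to 0.0222, but with any 1 of the 11 other arrays left out 14 to 23 did, and 18 with the replicate number as a block. The 13 that passed under every setting run for single genes were Ucp1, Cidea, Cox8b, Cox7a1, Fabp3, Otop1, Kcnk3, Plin5, Slc27a2, Hadhb, Pdk4, Rsad2 and Klrb1c.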

How the results depend on the processing

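The 10089 genes called were 8388 of 12130 with only genes of mean intensity at least 64 in the brighter tissue, 13804 of 28925 with all transcripts the authors tested, and 9722 to 11398 under the other alternatives that kept all genes and arrays, except 13273 after median centring. Requiring a 2-fold difference too left 3535, 1125 higher and 2410 lower. Scaling moved the balance: 9439 higher and 3834 lower after median centring, and 6910 higher after quantile normalization. Leaving out 1 array gave 8610 to 11181 called, 3263 to 4602 higher and 5347 to 6579 lower. BAT and WAT arrays share a replicate number, and whether 1 animal gave both is not stated. Deviations of arrays with 1 number correlated at -0.04, -0.12 and 0.06, which cannot decide that. With the replicate number as a block 9722 genes were called. The 118 genes unequal between WT and KO became 76 with that replicate block and 59 to 372 when 1 array was left out. Of 302 called genes named, 285 kept direction and call under each of 16 to 18 alternatives and none changed direction. The 17 that lost the call under 1 to 8 alternatives were Acly, Akap4, Angptl4, Apln, Bmp8b, Cd8a, Cdh5, Cebpa, Cebpd, Ddx58, Fitm1, Ifit3, Ms4a1, Pdgfrb, Pmp22, Rxra and Vwf, and the cause was not tested. Of the named genes not called, 12 passed in their direction under 1 to 6 alternatives: Acot4, Bcat2, Cd79a, Fabp5, Hoxc9, Ifit1, Myh7, Pecam1, Slc27a1, Th, Tnnt1 and Tnp1. Sign changed at 10, some of them the same genes, and Cd3e then passed after median centring (adjusted p = 0.0423). After median centring the log2 difference was 0.28 for Atp5g3, 0.30 for Cd3e, 0.014 for Cd79a, 0.24 for Per1, 0.28 for Slc6a8 and 0.25 for Th, and after quantile normalization 0.020 for Atp5g3, 0.24 for Cd3e, 0.18 for Per1, 0.26 for Slc6a8 and 0.049 for Th. With 1 array left out the values ran from -0.029 to 0.086 for Adipoq, -0.048 to 0.017 for Atp5g3, -0.063 to 0.0365 for Cd3e, -0.098 to 0.28 for Dbp, -0.053 to 0.18 for Hoxc9, -0.16 to 0.031 for Per1, -0.14 to 0.11 for Slc6a8, -0.33 to 0.079 for Th and -0.061 to 0.12 for Tnp1. The 3 arrays a group limit the precision, and intensities under 16 (14.4% to 18.03% of genes on the WT arrays) have little fold information. The depot of the WAT is not given by the labels.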

Other observations

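Other gene families of energy metabolism, grouped by symbol after their values had been seen, differed too. Coenzyme Q synthesis, which supplies the electron carrier between the first complexes and complex III, had 10 of 11 genes higher in BAT and none lower (median log2 difference 1.94). Coq8a, a kinase-like protein of that pathway, had 3818, 2834 and 3233 in BAT, against 231, 240.2 and 218 in WAT (log2 difference 3.74, limma adjusted p = 1.66e-08). Of 24 genes of protein import into mitochondria 21 were higher and 1 lower (median 1.11), and of 16 mitochondrial tRNA synthetases 15 were higher and none lower (median 0.94). Proteasome subunits, for comparison, had 16 of 39 higher and 2 lower, with a median of 0.22, against -0.03 over all genes. Over all genes 20.3% were higher and 30.3% lower.

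Of 13 genes of glycogen synthesis and breakdown 11 were higher in BAT and 1 lower (median 1.94). Gys2, the liver-type glycogen synthase, had 659.8, 819 and 687 in BAT, against 42, 44.4 and 53.4 in WAT (log2 difference 3.56, adjusted p = 2.68e-07), and Gys1, the muscle type, differed by 1.61. The branching enzyme Gbe1 differed by 2.51 and Ppp1r3b, a subunit that brings a phosphatase to glycogen, by 3.58. Of the phosphorylases, which release glucose units from glycogen, the liver type Pygl had 3129.7, 2541 and 2578 in BAT and 669.9, 749 and 693 in WAT, while the brain type Pygb was lower at 652, 408 and 493 in BAT and 1056, 1178 and 1033 in WAT. The muscle type Pygm had 643, 920.3 and 2569.9 in BAT, highest on replicate 3 as the muscle genes were, and 65.2, 78.2 and 119 in WAT. Gpd2, the mitochondrial partner of Gpd1 in the glycerophosphate shuttle, had 4241, 3279 and 3516 in BAT and 235, 240.4 and 256 in WAT (log2 difference 3.82). Ucp3, a relative of Ucp1 also made in muscle, had 735, 881 and 753 in BAT and 55.3, 68.4 and 75.3 in WAT (log2 difference 3.29), without the replicate 3 peak. Pm20d1, a secreted enzyme that joins fatty acids to amino acids, differed by 2.93. Carbonic anhydrases divided, with 9 of 16 higher and 3 lower, from -5.46 at Car12 to 2.93 at Car13.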
